A study of Mus musculus with 6 samples.

Results

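The CXC chemokines described here are 8 genes, Cxcl1, Cxcl2, Cxcl5, Cxcl9, Cxcl10, Cxcl12, Cxcl14 and Cxcl16. These were taken by gene name and not by their values, though with earlier results of these data known. They were read by 15 probe sets, every probe set whose only gene symbol is 1 of these names, out of 45037 probe sets and 18193 named genes on the array. Cxcl1 and Cxcl12 had 3 probe sets each, Cxcl9, Cxcl14 and Cxcl16 had 2 each, and Cxcl2, Cxcl5 and Cxcl10 had 1 each. No probe set naming a member also named another gene. Hippocampal total RNA came from mice of 2 to 3 months. There were 3 IκBα-deficient animals (IκBαfl/-;Nestin-Cre) and 3 littermate controls (IκBαfl/-), 1 array per animal. Both groups carried 1 floxed and 1 null allele of the IκBα gene Nfkbia, so the controls were already heterozygous, and Nestin-Cre acts in the neural lineage, which leaves microglia, leukocytes and endothelium outside the intended deletion.

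CXC chemokines are small secreted proteins, named for a pair of cysteines parted by 1 residue, that steer migrating cells through receptors coupled to G proteins. Cxcl1, Cxcl2 and Cxcl5 draw neutrophils through Cxcr2, and Cxcl9 and Cxcl10 draw activated T cells and natural killer cells through Cxcr3. Cxcl12 is made constantly in the brain, where it guides neuronal and progenitor migration through Cxcr4 and is scavenged by Ackr3, Cxcl14 is a constitutive member found in interneurons, and Cxcl16 is a membrane-bound ligand of Cxcr6 that Adam10 and Adam17 release. Several of the inducible members are textbook targets of NF-κB, the transcription factor that IκBα holds in the cytoplasm.

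The promoters of 4 members are shown because they differ in matches to the κB consensus, the site of the NF-κB dimers that IκBα holds back. RefSeq promoters (GRCm38.p6) of 6 of the 8 members were used here. The 250 bases before the annotated start of each were searched on both strands for the κB consensus GGGRNNYYCC and for the core of interferon-stimulated elements (GAAA, any 2 bases, GAAA). Here R is A or G, Y is C or T and N is any base. Only full matches were counted, so sites that differ from these letters were not looked for. The printed strand is that of the gene, read 5′ to 3′, and capitals mark these motifs.
Cxcl1 (chr5:90890995-90891244, plus strand): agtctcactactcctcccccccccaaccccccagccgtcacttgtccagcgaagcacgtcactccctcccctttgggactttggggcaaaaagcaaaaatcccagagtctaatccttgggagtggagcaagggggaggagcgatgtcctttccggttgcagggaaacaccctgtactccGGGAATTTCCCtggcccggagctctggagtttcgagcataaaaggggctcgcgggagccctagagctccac
Cxcl2 (chr5:90903649-90903898, plus strand): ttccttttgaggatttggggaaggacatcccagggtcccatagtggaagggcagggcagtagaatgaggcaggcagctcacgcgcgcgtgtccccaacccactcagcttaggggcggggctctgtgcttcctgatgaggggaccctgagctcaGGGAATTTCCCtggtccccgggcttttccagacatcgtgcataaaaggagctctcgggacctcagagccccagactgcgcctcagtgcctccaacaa
Cxcl10 (chr5:92348890-92349139, minus strand): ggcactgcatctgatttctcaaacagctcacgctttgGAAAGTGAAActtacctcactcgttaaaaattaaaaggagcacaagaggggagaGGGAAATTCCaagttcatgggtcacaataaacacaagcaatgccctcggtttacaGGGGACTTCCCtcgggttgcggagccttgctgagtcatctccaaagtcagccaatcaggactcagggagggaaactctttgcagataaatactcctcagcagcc
Cxcl12 (chr6:117168285-117168534, plus strand): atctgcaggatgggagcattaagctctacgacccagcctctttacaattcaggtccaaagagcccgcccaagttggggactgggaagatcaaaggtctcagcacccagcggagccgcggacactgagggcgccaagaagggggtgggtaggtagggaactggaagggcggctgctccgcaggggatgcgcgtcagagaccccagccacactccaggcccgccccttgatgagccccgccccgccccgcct

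The κB consensus stood at 1 place in Cxcl1, bases 71 to 61 before the start, and at 1 place in Cxcl2, bases 97 to 87. The letters GGGAATTTCCC at these places were the same, and match on both strands. Cxcl10 held it at 2 places, bases 159 to 150 and bases 104 to 94, and held the interferon element at bases 213 to 204. Neither motif was found in the windows of Cxcl12 and Cxcl9, and Cxcl14 held the interferon element at bases 172 to 163 and no κB match. Of all 32841 promoter windows of the same length, 7.25% held the κB consensus and 2.98% held the interferon element. Cxcl1 and Cxcl2 are neighbours on chromosome 5, which also carries Cxcl5, Cxcl9 and Cxcl10, while Cxcl12 lies on chromosome 6, Cxcl14 on chromosome 13 and Cxcl16 on chromosome 11.

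All values are RMA values on the log2 scale, a relative measure of the brightness of a probe set after normalization, and a difference is IκBα-deficient minus control. The targeted gene was lower on every IκBα-deficient array by its brightest probe set (1420088_at). Nfkbia read 9.06, 9.13 and 8.66 on the IκBα-deficient arrays, against 10.39, 10.35 and 10.31 on the control arrays, a difference of -1.40 with a Benjamini-Hochberg adjusted p from limma of 0.0629. Only 3 of the 45037 probe sets, or 0.00666%, passed the threshold of 0.05, and all 3 were probe sets of Nfkbia with lower values. Of the 5 Nfkbia probe sets, only 1420089_at overlapped between the groups, with a difference of -0.35 and an adjusted p of 0.9999 (limma). Array medians lay between 6.08 and 6.12. IκBα-deficient array 2 stood apart in how far its 3′ control probe sets exceeded its 5′ ones, by 2.02 beside 0.65 and 0.61 on the other IκBα-deficient arrays and 0.56 to 0.73 on the controls. Group means were above those of the controls for 11 of 11 measured choroid plexus markers and 10 of 10 meninges markers, of which 8 and 6 were near background as defined below. The array means of both lists overlapped between the groups, with an exact two-sided permutation p of 0.2 for each list. Over all genes 52.6% had higher means. Of the other cell type lists, pericyte and smooth muscle markers were higher for 7 of 8 and astrocyte markers for 4 of 8. Only the astrocyte list means did not overlap, 11.71 to 11.77 against 11.66 to 11.69 on the controls. Its permutation p was 0.1, the smallest that 3 against 3 arrays can give.

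None of the 15 CXC chemokine probe sets passed the threshold, and each had an adjusted p of 0.9999 (limma), so no change was called in any member. In 10 simulated datasets with 200 changed probe sets, the fit recovered 75.7% of changes of 1 and 25.8% of changes of 0.5. The real data had only 3 calls, and with fewer changes the adjustment is stricter. Nfkbia 1420088_at, with a difference of -1.40, did not pass here. These shares can thus be too high for the members, so changes of 1 could be missed and most changes of 0.5 would be. The unadjusted limma test put 1 of the 15, a probe set of Cxcl14, below 0.05, where 3.34% of all probe sets were below it. Of the 15 probe sets, 8 had higher means and 7 lower means in IκBα-deficient animals, with a median difference of 0.017, beside -0.00054 over all probe sets. The IκBα-deficient and control arrays did not overlap for 1 of the 15, again Cxcl14, where 8.45% of all probe sets did not overlap. These shares are near those of the array as a whole, and the differences ran between -0.20 for Cxcl14 and 0.68 for Cxcl5.

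**Figure D1:**
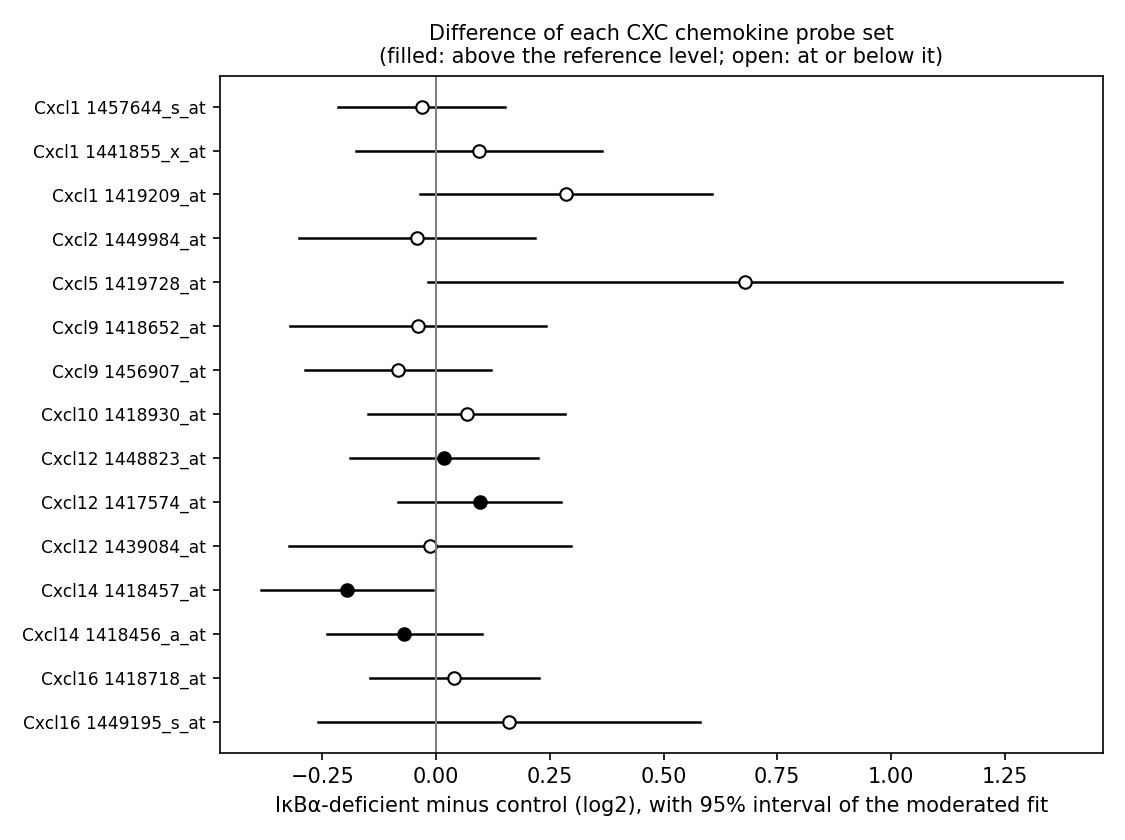
Difference between IκBα-deficient and control arrays (log2, horizontal axis) for each of the 15 probe sets, with its 95% interval from limma. Filled points are the 4 probe sets above the reference level of 7.86 and open points the 11 at or below it. The interval of Cxcl5, from -0.02 to 1.38, is the widest, and that of Cxcl14 1418457_at, from -0.39 to -0.007, lies below 0.

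Most of the 15 probe sets lay at or below the limit used here, as did most probe sets on the array. As a reference, 48 probe sets of 33 genes typical of other organs, such as testis, liver and skin, had a median of 4.27 and a 95th percentile of 7.86. Above that percentile stood 4 of the 15 CXC chemokine probe sets, both of Cxcl14 and 2 of the 3 of Cxcl12. The other 11 were at or below it and are called near background here, a wide limit, since 31035 of all 45037 probe sets, the Nfkbia probe sets 1449731_s_at and 1448306_at among them, were near background by it as well. Cxcl2 and both probe sets of Cxcl9 were below even the median of the reference. Binding differs between probe sets, so these levels say how far each stands from the reference and do not rank the genes.

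**Figure D2:**
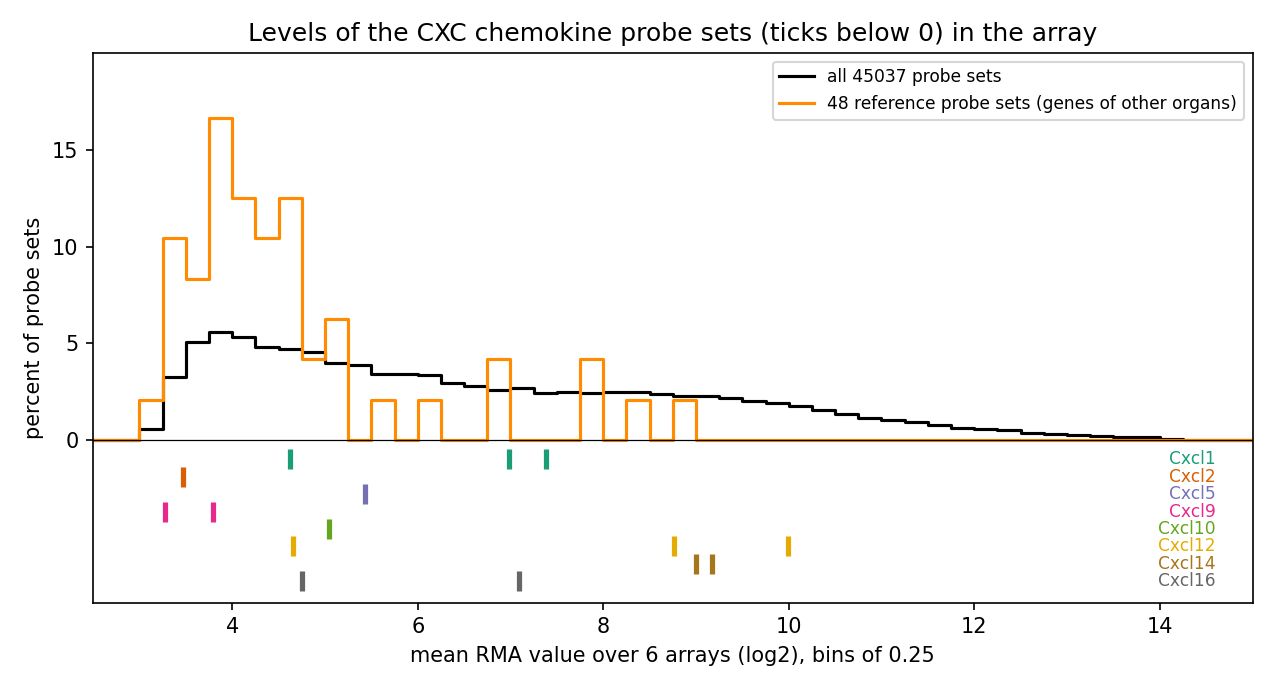
Distribution of the mean RMA value over 6 arrays (log2, horizontal axis) for all 45037 probe sets and for the 48 reference probe sets, as percent of probe sets per bin. The coloured ticks below 0 mark the 15 CXC chemokine probe sets, with Cxcl2 and Cxcl9 at the dim end and Cxcl12 and Cxcl14 to the right of most reference probe sets.

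Among the neutrophil attractants, Cxcl5 (1419728_at), an epithelial and endothelial chemokine, had the widest difference of the 15. It read 6.43, 5.21 and 5.66 on the IκBα-deficient arrays, against 4.90, 4.90 and 5.46 on the control arrays. IκBα-deficient array 1 was well above all the others, IκBα-deficient array 2 lay below control array 3, and so the groups overlapped. Cxcl5 averaged 5.77 ± 0.62 in IκBα-deficient animals and 5.09 ± 0.32 in controls (SD, n = 3 each). The difference was 0.68 ± 0.30 (SE), or 1.60-fold, with a 95% interval of 0.988-fold to 2.60-fold and an adjusted p of 0.9999 (limma). A difference of this size was seen in 0.215% of all probe sets, but its spread was also wide, with an SD among IκBα-deficient arrays at the 99.3rd percentile of all probe sets. Without IκBα-deficient array 1 the difference was 0.35, and without IκBα-deficient array 2 it was 0.96. The choroid plexus markers had their highest mean on IκBα-deficient array 1 as well, at 8.64. Their means were 8.01 and 7.65 on the other IκBα-deficient arrays and 7.78, 5.67 and 5.72 on the controls. On control array 1, also high in these markers, Cxcl5 was at 4.90, its lowest value. With that list as a covariate the Cxcl5 difference was 0.64, with the meninges list 1.19 and with the 3′ to 5′ gap 0.96, none past the threshold (limma, adjusted p = 0.968 with the meninges list). The part of these markers in the difference was not tested.

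Cxcl1, a chemokine released early by astrocytes and endothelium in inflammation, gave different readings by probe set. The dim probe set 1419209_at read 4.99, 4.76 and 4.53 on the IκBα-deficient arrays, against 4.30, 4.47 and 4.66 on the control arrays. IκBα-deficient array 3 lay below control array 3, so the groups overlapped, and the difference was 0.29 ± 0.14 (SE), with a 95% interval of -0.03 to 0.61. Leaving out IκBα-deficient array 1 brought it to 0.17. The Cxcl1 probe sets 1457644_s_at and 1441855_x_at were brighter and carry the array maker's codes for sequence shared with other transcripts. Cxcl1 1457644_s_at read 7.34, 7.45 and 7.30 on the IκBα-deficient arrays, against 7.43, 7.46 and 7.30 on the control arrays, nearly the same values. The other, 1441855_x_at, read 7.08, 7.22 and 6.82 on the IκBα-deficient arrays, against 6.97, 7.04 and 6.82 on the controls. Their differences were -0.03 and 0.09, so the 3 Cxcl1 probe sets did not share a sign, and which transcript the coded ones read is uncertain. The signal of Cxcl2 (1449984_at), the neighbour of Cxcl1 with the same κB letters, lay near the floor of the array. It read 3.61, 3.43 and 3.30 on the IκBα-deficient arrays, against 3.62, 3.52 and 3.32 on the control arrays, with 42 of the 48 reference probe sets brighter. Its difference was -0.04 with a 95% interval of -0.30 to 0.22, and at this level RMA compresses differences, so a change in Cxcl2 could be hidden.

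**Figure D3:**
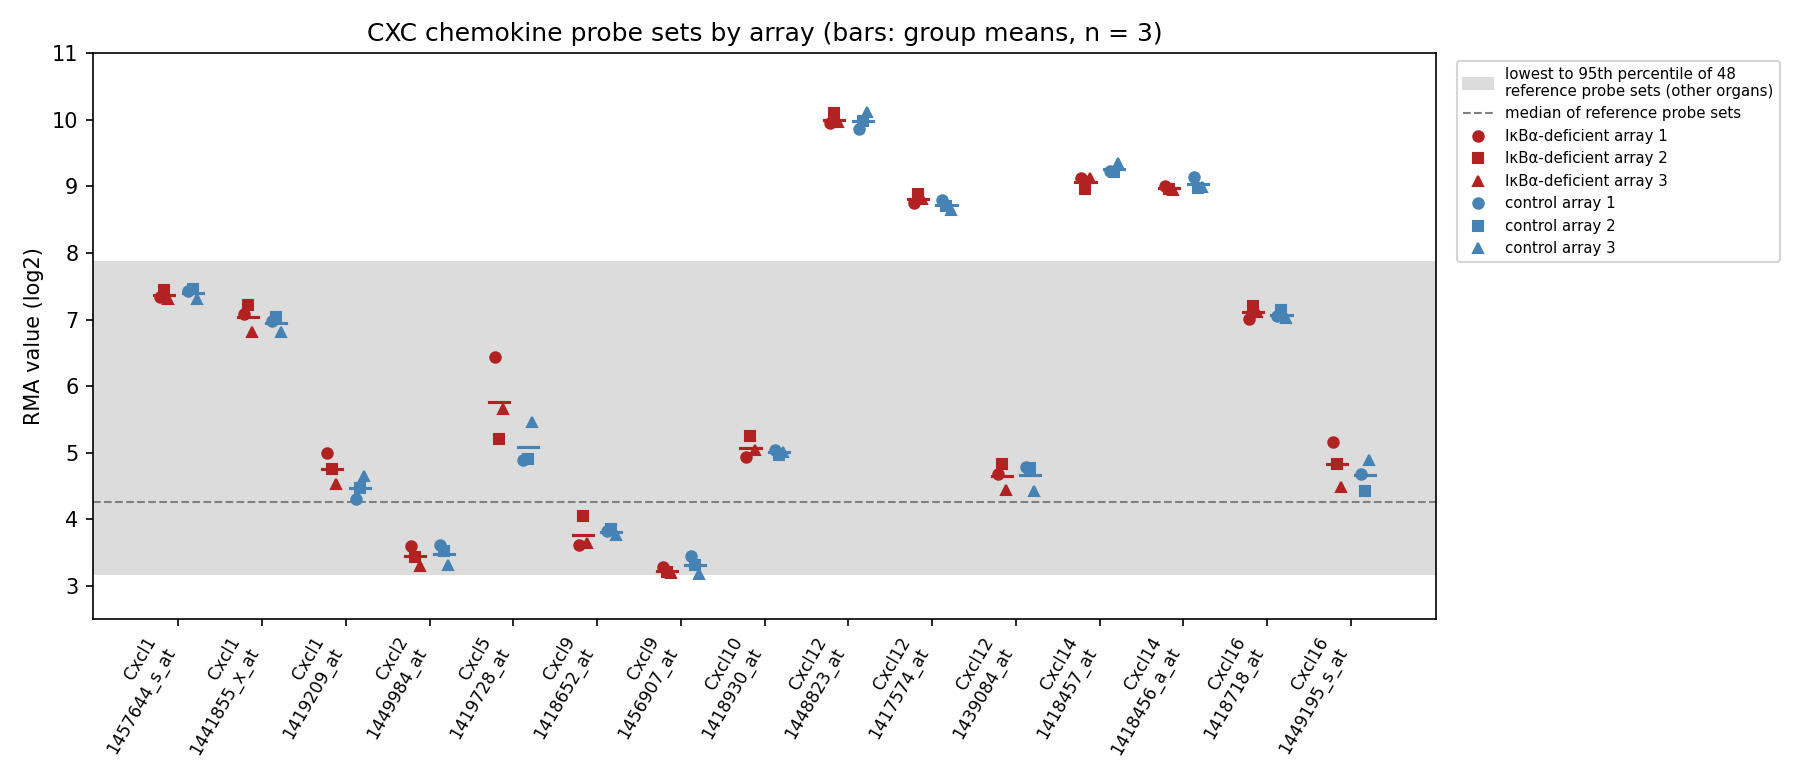
RMA value (log2, vertical axis) of each CXC chemokine probe set on each array, IκBα-deficient in red and control in blue, with horizontal bars for group means (n = 3). The grey band runs over the reference probe sets, from the lowest to the 95th percentile, and the dashed line is their median of 4.27. Cxcl5 spreads most among the arrays, and the groups are apart only for Cxcl14 1418457_at.

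The Cxcr3 ligands, which interferon-γ induces, did not pass the test either. Cxcl10 (1418930_at) holds 2 κB places and the interferon element in its promoter, as printed above. It read 4.93, 5.24 and 5.05 on the IκBα-deficient arrays, against 5.05, 4.96 and 5.01 on the control arrays. The highest and the lowest of the 6 values were both from IκBα-deficient animals, and the difference was 0.07 with a 95% interval of -0.15 to 0.28. The upper bound of the Cxcl10 interval was 1.22-fold, on a scale where low values are compressed. Without IκBα-deficient array 2 the Cxcl10 difference was -0.018. Cxcl9 read 3.62, 4.05 and 3.65 by 1418652_at on the IκBα-deficient arrays, against 3.82, 3.85 and 3.76 on the control arrays, and only IκBα-deficient array 2 was above the controls. By its other probe set, 1456907_at, Cxcl9 read 3.28, 3.21 and 3.20 on the IκBα-deficient arrays, against 3.45, 3.31 and 3.17 on the controls, with 47 of the 48 reference probe sets brighter. The Cxcl9 differences were -0.04 and -0.08, and neither probe set stood above the median of the reference.

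The constitutive members had the 4 probe sets above the reference percentile. Cxcl12, the Cxcr4 ligand, read 9.94, 10.09 and 9.97 by 1448823_at on the IκBα-deficient arrays, against 9.86, 9.97 and 10.11 on the control arrays. These overlap fully, with a difference of 0.017 ± 0.09 (SE) and a 95% interval of 0.877-fold to 1.17-fold. By 1417574_at, Cxcl12 read 8.74, 8.88 and 8.81 on the IκBα-deficient arrays, against 8.80, 8.71 and 8.64 on the controls, and its difference of 0.10 had an interval of 0.944-fold to 1.21-fold. So neither bright probe set of Cxcl12 passed, and their intervals leave changes of up to about 1.21-fold upward. The third Cxcl12 probe set, 1439084_at, was dim at 4.65 ± 0.19 in IκBα-deficient animals and 4.66 ± 0.20 in controls (SD, n = 3 each).

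Cxcl14 was the member whose groups did not overlap, by 1 of its 2 probe sets. It read 9.12, 8.96 and 9.13 by 1418457_at on the IκBα-deficient arrays, against 9.23, 9.22 and 9.35 on the control arrays. All 3 IκBα-deficient values were below all 3 controls, as in 3.68% of all probe sets. Cxcl14 averaged 9.07 ± 0.10 in IκBα-deficient animals and 9.27 ± 0.08 in controls (SD, n = 3 each). The difference of -0.20 ± 0.08 (SE), or 1.15-fold lower, did not pass the threshold (limma, adjusted p = 0.9999), and 8.48% of all probe sets differed by as much. The other Cxcl14 probe set, 1418456_a_at, read 8.998, 8.952 and 8.948 on the IκBα-deficient arrays, against 9.135, 8.981 and 8.992 on the control arrays. There IκBα-deficient array 1 stood above control arrays 2 and 3, and the difference was -0.07. It was -0.020 without control array 1 and -0.19 with the choroid plexus covariate. The meninges markers ran the other way from 1418457_at, with means of 7.9999, 8.73 and 7.92 on the IκBα-deficient arrays, against 7.85, 7.92 and 7.41 on the controls. IκBα-deficient array 2, where 1418457_at was lowest, had the highest mean of that list and the widest 3′ to 5′ gap, and control array 3, where it was highest, had the lowest. With the meninges list as a covariate the Cxcl14 difference was -0.08, and without IκBα-deficient array 2 it was -0.14. The part of these markers in the difference was not tested. In whole tissue, fewer cells of a type and less RNA per cell cannot be told apart.

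**Figure D4:**
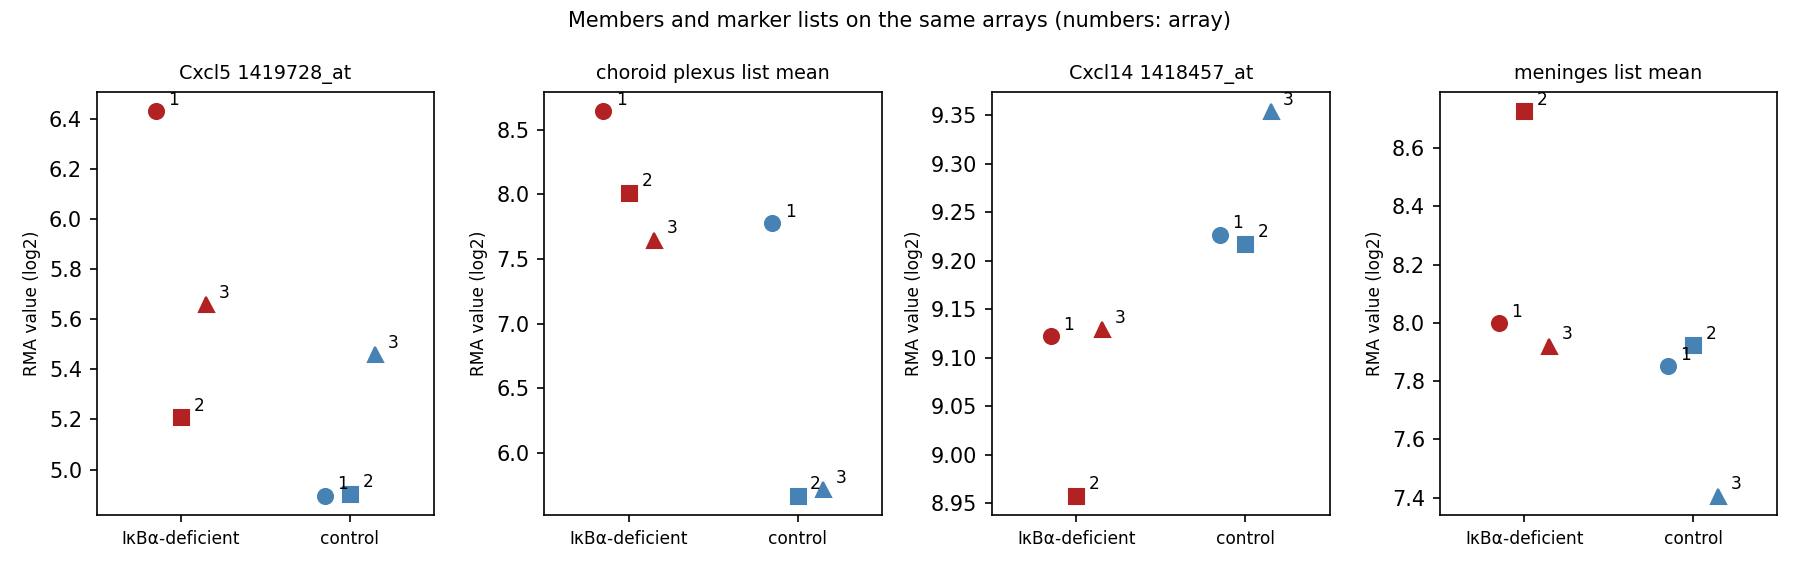
RMA values (log2, vertical axes, each with its own range) of Cxcl5 and of Cxcl14 1418457_at by array, beside the mean of 11 choroid plexus markers and of 10 meninges markers on the same arrays. Numbers give the array within its group, IκBα-deficient on the left. Choroid plexus means are high on control array 1 as well as on the IκBα-deficient arrays, and the array highest in meninges markers, IκBα-deficient array 2, is lowest in Cxcl14.

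Cxcl16, the membrane-bound chemokine, read 7.01, 7.21 and 7.11 by 1418718_at on the IκBα-deficient arrays, against 7.05, 7.14 and 7.02 on the control arrays. The lowest and the highest value were both from IκBα-deficient animals, and the difference was 0.04 with a 95% interval of -0.15 to 0.23. The dimmer Cxcl16 probe set, 1449195_s_at, which is coded as shared between transcripts, read 5.16, 4.83 and 4.49 on the IκBα-deficient arrays, against 4.69, 4.43 and 4.88 on the controls. Its difference was 0.16, and it was -0.0043 without IκBα-deficient array 1. That array was also highest for Cxcl5 and for Cxcl1 1419209_at, 3 of the 15 probe sets in all, and it was lowest for 3 others, Cxcl9 1418652_at, Cxcl10 and Cxcl16 1418718_at. IκBα-deficient array 2 was highest for 6 of the 15 and lowest for 1, while IκBα-deficient array 3 was highest for none and lowest for 3.

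The receptors of these ligands did not pass. Ackr3, the scavenger of Cxcl12, stood above the reference at 9.27 ± 0.06 in IκBα-deficient animals and 9.33 ± 0.04 in controls (SD, n = 3 each). Its only probe set, 1417625_s_at, is coded as shared between transcripts, so which transcript it reads is uncertain. Cxcr4 was near background, at 5.66, 5.42 and 5.06 on the IκBα-deficient arrays, against 5.15, 5.31 and 5.47 on the control arrays. Cxcr2 averaged 4.24 in IκBα-deficient animals and 4.25 in controls, and Cxcr3 averaged 4.83 in IκBα-deficient animals and 4.82 in controls. For the brighter probe set of Cxcr6 the means were 4.30 in IκBα-deficient animals and 4.28 in controls. The other Cxcr6 probe set, 1422812_at, read 3.15, 3.37 and 3.36 on the IκBα-deficient arrays, against 3.54, 3.33 and 3.61 on the control arrays, a difference of -0.20 at the dim end of the array. Cxcr2, Cxcr3 and Cxcr6 are best known from leukocytes, whose markers were all near background, 10 of 10 measured, with list means of 4.78 to 4.94 in IκBα-deficient animals and 4.87 to 4.91 in controls.

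The rest of the chemokine system, read by the brightest probe set of each gene, gave 0 of 55 genes past the threshold in either direction (limma), beside 0 of all 18193 genes read this way and adjusted over all probe sets. At an unadjusted p under 0.05 there were 4 of the 55 and 666 of the 18193. The median difference of the 55 was 0.013, beside 0.0058 over all genes. By the wide limit above, 47 of the 55 were near background, beside 9509 of the 18193 genes. Of the genes named below only Cx3cr1 and Ccl27a stood above the reference percentile. Of 19 measured chemokine receptors 11 had higher and 8 lower means. The monocyte receptor Ccr1 differed by 0.21, Ccr9 by -0.24, the microglial fractalkine receptor Cx3cr1 by 0.11 and Ccr3 by 0.13. Of 18 measured CC chemokines 8 had higher and 10 lower means, with Ccl25 at -0.28, the monocyte attractant Ccl2 at 0.08, Ccl4 at -0.09 and Ccl27a at -0.09. Of 9 further ligands 6 had higher and 3 lower means, with Cxcl11, the third Cxcr3 ligand, at -0.15, Pf4 at 0.12, Ppbp at 0.11 and Xcl1 at -0.07. Of 9 genes that cleave, bind or act with chemokines 6 had higher and 3 lower means. Among them the invariant chain Cd74 differed by 0.47 and the gelatinase Mmp2 by 0.33, while Mmp9 differed by -0.18 and Mmp8 by 0.15. Cd74 read 7.00, 7.30 and 6.95 on the IκBα-deficient arrays, against 6.73, 6.67 and 6.45 on the control arrays, with no overlap, and had an adjusted p of 0.9999 (limma). The groups did not overlap for 6 of the 55 genes, or 10.9%, beside 9.76% of all genes read by their brightest probe set. The meninges markers given above for Cxcl14 were also highest on IκBα-deficient array 2, where Cd74 was highest, and their part in its difference was not tested.

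**Figure D5:**
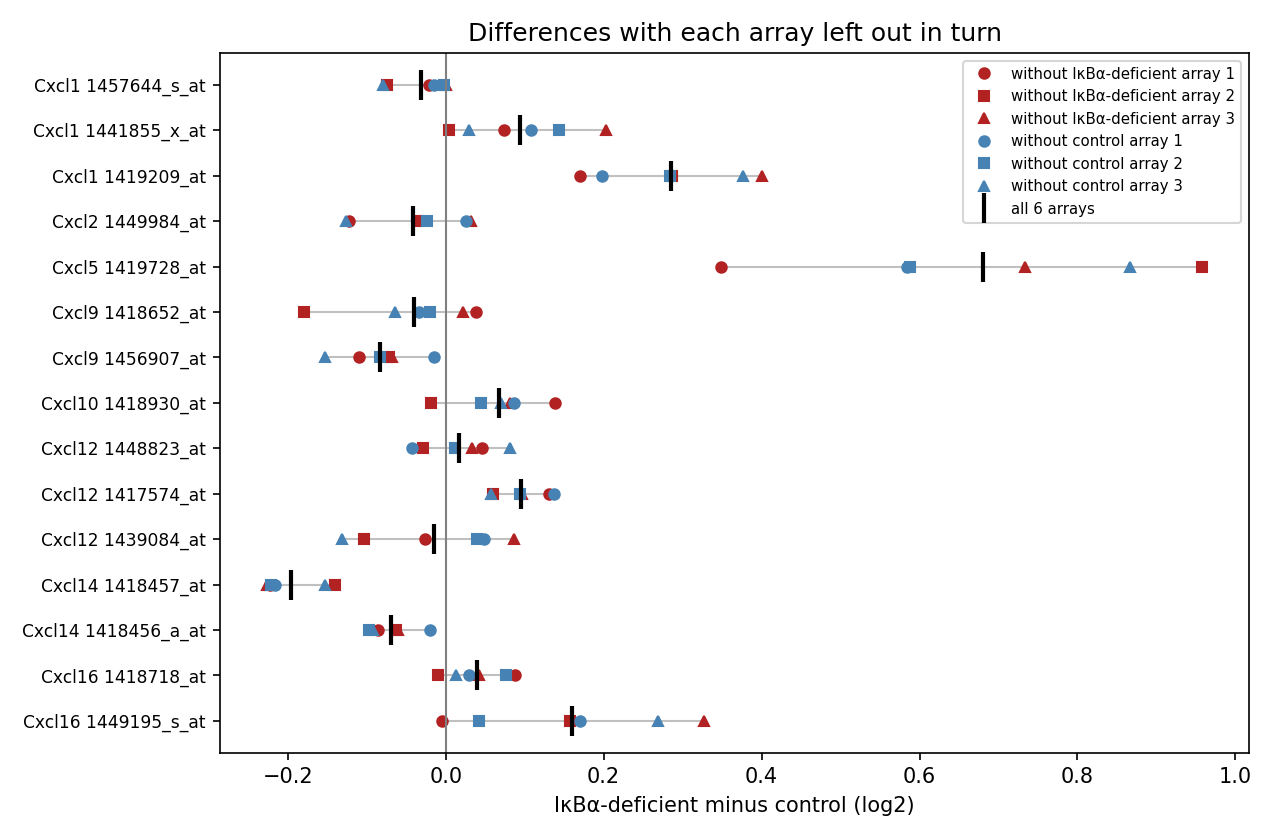
Difference between IκBα-deficient and control arrays (log2, horizontal axis) for each CXC chemokine probe set, with all 6 arrays (black bar) and with each array left out in turn (points). Cxcl5 moves between 0.35 and 0.96, Cxcl14 1418457_at stays between -0.23 and -0.14, and 8 of the 15 probe sets have points on both sides of 0.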

How the data were processed

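Hippocampal RNA of 3 IκBα-deficient and 3 control mice was measured on Affymetrix arrays, 1 per animal. The deposited values are log2 values. Per the submitters' processing notes they come from RMA, which corrects background, quantile-normalizes and summarizes each probe set. Its version is not given in the sources used here. Quantile normalization would hide a change shared by most genes. Arrays have no read depth, and their number limits the precision. The labels call the arrays biological repeats.

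Of 45101 probe sets, 64 control probe sets were left out. By GEO's platform annotation 34945 had 1 gene symbol, 932 several and 9160 none here. All 45037 were fitted with limma 3.58.1 in R 4.3.3 (genotype as the only term, two-sided), with Benjamini-Hochberg adjustment over all of them and a threshold of 0.05. Lists were read by the brightest probe set per gene. The named genes were all CXC chemokine probe sets, Nfkbia, the members' receptors and the 4 genes per list with the smallest p. A probe set at or below the 95th percentile of 48 probe sets of genes of other organs was called near background. Members and lists were chosen with earlier results of these data known. The fit was tested on simulated data, with the recovery given in the results. The alternatives left out each array in turn, added the repeat number as a block, or used other normalizations, filters and probe set choices, other variance settings and thresholds, or covariates for choroid plexus, meninges and the 3′ to 5′ gap. Figures were drawn with matplotlib 3.10.9.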

Additional observations from a re-analysis of the deposited data

How the results depend on the processing

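In 20 alternatives no CXC chemokine probe set and none of the other chemokine-system genes passed the threshold, and at an unadjusted p under 0.05 there were 0 to 2 of the CXC chemokine probe sets. Cxcl5, Cxcl14 (both probe sets), Cxcl1 1419209_at, Cxcl12 1417574_at and Cxcl9 1456907_at kept their sign in every alternative that tested them. Cxcl5 ranged from 0.35 to 1.19 and Cxcl14 1418457_at from -0.23 to -0.08. With arrays left out in turn the differences of those that changed sign ranged from -0.079 to 0.00012 for Cxcl1 1457644_s_at, from -0.13 to 0.032 for Cxcl2, from -0.18 to 0.038 for Cxcl9 1418652_at, from -0.018 to 0.14 for Cxcl10, from -0.043 to 0.082 for Cxcl12 1448823_at, from -0.13 to 0.087 for Cxcl12 1439084_at, from -0.010 to 0.088 for Cxcl16 1418718_at and from -0.0043 to 0.33 for Cxcl16 1449195_s_at. With the mean of all probe sets per gene Cxcl1 turned to 0.12. With the choroid plexus covariate Cxcl16 1449195_s_at turned to -0.031. With the meninges covariate Cxcl1 1441855_x_at turned to -0.094, Cxcl10 to -0.040 and Cxcl16 1418718_at to -0.050. With the 3′ to 5′ covariate Cxcl1 1441855_x_at turned to -0.0011, Cxcl10 to -0.013, Cxcl12 1448823_at to -0.023 and Cxcl16 1418718_at to -0.011. The cause was not tested.

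The count over all probe sets, 3 in the report, was 1 to 8 with arrays left out, with 8 (6 higher and 2 lower) without control array 1 and 1 without control array 3 or IκBα-deficient array 2. It was 1 with the meninges covariate, 1 with the 3′ to 5′ covariate and 1 with the mean per gene. It was 0 with the brightest probe set per gene (857 at an unadjusted p under 0.05), 0 without moderation (1624) and 0 with the choroid plexus covariate (705). The repeat numbers were used as a replicate block, which gave 2 calls over all probe sets and 0 among the CXC chemokines. Deviations of same-numbered arrays correlated at -0.0044, 0.27 and 0.033, and IκBα-deficient array 1 correlated best with control array 3, at 0.29. The study describes 3 pairs of knockout animals and littermates, but no label says that the repeat number marks a pair, so the block is given as an alternative only. Low signal limits most what Cxcl2 and the Cxcl9 probe sets, below the median of the reference, can show.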

Other observations

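Genes whose values ran most like those of a member over the 6 arrays were looked up among between 19937 and 19939 probe sets brighter than the median of the array. With 6 arrays and this many probe sets, high correlations arise easily, and the values are descriptive. For Cxcl12 (1448823_at) the closest were Ehbp1l1 at a Pearson correlation of 0.997, Pstpip2 at 0.994 and Ss18 at 0.988, with 166 probe sets over 0.9. For Cxcl14 (1418457_at) they were Sike1 at 0.997, Adarb1 at 0.996 and Gstm5 at 0.989, with 392 probe sets over 0.9. For Cxcl5 they were Rps27l at 0.994, Wfdc18 at 0.985 and Ednrb at 0.983, with 85 over 0.9. For Cxcl16 (1418718_at) they were Xkr4 at 0.991, Foxp4 at 0.989 and Vps35l at 0.987, and for Cxcl1 (1457644_s_at) they were Tcf25 at 0.996, Ndufa3 and Atf7, both at 0.985. That Cxcl1 probe set is coded as shared with other transcripts, so which transcript these values follow is uncertain.

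Pairs of probe sets of the same member had correlations between -0.47 and 0.75 over the 6 arrays. For Cxcl1 the probe sets 1457644_s_at and 1441855_x_at had 0.75, 1441855_x_at and 1419209_at 0.37, and 1457644_s_at and 1419209_at -0.31. For Cxcl12 the bright pair had -0.16, and the dim 1439084_at had 0.50 with 1417574_at and -0.30 with 1448823_at. The pair of Cxcl14 had 0.39, that of Cxcl9 0.04 and that of Cxcl16 -0.47.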
